A study of Mus musculus with 9 samples.

Results

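The Ifi200 cluster is a run of related interferon-inducible genes on mouse chromosome 1, and 7 of its genes are described here in the cerebellum of transgenic mice that model spinocerebellar ataxia type 3. The 7 genes, Ifi203, Mndal, Ifi204, Ifi207, Ifi209, Ifi213 and Aim2, were taken by name out of 37816 genes in the count table. All 7 had a row, and all 7 passed the filter on low counts that left 19353 genes for testing, none of them only through 15Q. The set was drawn up because earlier results of these data showed Ifi203 and Mndal higher in the 84Q libraries than in the 15Q libraries. The values of those genes against 15Q, and any count of those past a threshold there, are therefore a description, are given without p-values and support nothing. The difference between 84Q+IGF1 and 84Q was not used in the choice and is tested, although its 84Q libraries are among those on which Ifi203 and Mndal were picked as high. The cluster holds 7 other annotated genes with a row, Ifi205, Ifi206, Ifi208, Ifi211, Ifi214, Ifi202b and the pseudogene Ifi203-ps, of which the first 4 and Ifi203-ps passed the filter.

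RNA was sequenced from the cerebella of 9 mice on a C57BL/6 background, with 3 libraries in each of 3 groups. All mice carried a human ATXN3 transgene on a yeast artificial chromosome, which had 15 CAG repeats in 15Q mice and 84 in 84Q and 84Q+IGF1 mice, and all kept their own mouse Atxn3 gene. The 84Q+IGF1 mice received insulin-like growth factor 1 at 50 mg/kg by weekly intraperitoneal injection between 9 months of age and harvest at 18 months. The 15Q and 84Q mice are labelled untreated, while the protocol gives injections of PBS in place of the growth factor. The methods of the study name different sources for the 15Q and the 84Q mice, so the length of the repeat and the origin of the line cannot be told apart in any comparison with 15Q. Counts on genes came to 17482654 to 58269196 per library, and the library with the most was 15Q replicate 3. Xist was abundant in 4 libraries, namely 15Q replicates 2 and 3, 84Q replicate 1 and 84Q+IGF1 replicate 2, so each group held mice of both sexes by this measure.

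Proteins of this family, the PYHIN or HIN-200 proteins, mostly pair a pyrin domain, which binds other pyrin domains, with one or more HIN domains, which bind DNA. Aim2 senses DNA in the cytosol and, through the adaptor Pycard, assembles an inflammasome that activates Casp1, which in turn matures interleukins and cleaves gasdermin D. Many genes of the family respond to type I and type II interferons, the cluster differs in gene content between mouse strains, and in the brain such genes are best known from microglia and other macrophages.

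The 14 genes lay between positions 173350879, the start of Aim2, and 174031810, the end of Ifi205, on chromosome 1 of GRCm38 in the GENCODE vM21 annotation, a span of 681 kb. Aim2 (173350879 to 173466040) and Ifi209 (173630917 to 173647928) are on the plus strand. Ifi213 (173566283 to 173599274), Ifi207 (173723427 to 173741747), Ifi204 (173747293 to 173766943), Mndal (173849126 to 173942491) and Ifi203 (173920407 to 173942672) are on the minus strand. One Mndal transcript reaches as far as the first exons of Ifi203, so the annotated span of Mndal contains that of Ifi211 and most of that of Ifi203. The exons that Ifi203 and Mndal have in common came to 0.552% of the exonic bases of Ifi203, and no gene of the cluster shared exonic bases with a gene on the opposite strand.

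Because the genes arose by duplication, reads can fit more than one of them, and how the counting treated such reads is not given in the sources used here. Words of 150 bases, the read length, that also occur in another gene of the cluster made up 0.827% of the Ifi203 transcripts and 1.61% of the Mndal transcripts. The shares were 6.77% for Ifi204, 9.28% for Ifi209 and 0.223% for Ifi213, and none of the words of Aim2 or Ifi207 was shared. Among the other genes, Ifi211 shared 46.4% of its words, 32.3% with Ifi205 and 14.1% with Ifi204. Ifi205 shared 12.6%, and the counts of Ifi211 in particular are uncertain. Shorter words, of 31 bases, were shared within the cluster far more often. Their shares were 20.7% for Ifi203, 25.3% for Mndal, 29.4% for Ifi204 and 13.7% for Ifi207. For Ifi209 the share was 46.8%, for Ifi213 25.6% and for Aim2 0%.

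The upstream sequences of Ifi203 and Mndal, the genes that stood higher in the 84Q libraries, are shown first. Windows of 300 bases, from 250 before to 50 after each transcript start, were taken from RefSeq on GRCm38.p6, where 6 of the 7 genes and 12 of the 14 had an entry. They were searched on both strands for GAAANNGAAA, the core letters of the interferon-stimulated response element, which is printed in capitals. Each window below is on the minus strand of chromosome 1 and reads from 5′ to 3′.
Ifi203, chr1:173942443-173942742: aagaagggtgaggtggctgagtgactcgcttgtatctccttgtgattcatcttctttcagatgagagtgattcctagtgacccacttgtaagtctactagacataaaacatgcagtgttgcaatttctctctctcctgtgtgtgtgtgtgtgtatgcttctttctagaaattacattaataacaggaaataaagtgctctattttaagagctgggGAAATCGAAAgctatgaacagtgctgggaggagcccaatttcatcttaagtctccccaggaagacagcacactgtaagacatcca
Mndal, chr1:173880138-173880437: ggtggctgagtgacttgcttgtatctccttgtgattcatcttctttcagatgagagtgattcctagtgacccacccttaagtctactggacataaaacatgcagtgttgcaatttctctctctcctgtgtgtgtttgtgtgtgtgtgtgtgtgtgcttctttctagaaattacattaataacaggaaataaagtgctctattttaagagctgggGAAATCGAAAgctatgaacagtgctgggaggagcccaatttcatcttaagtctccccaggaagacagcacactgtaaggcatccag
The windows of Ifi203 and Mndal matched at 282 of 289 aligned bases, or 97.6%, with 22 bases in gaps. Such likeness was not particular to them. Of the aligned bases, Ifi206 and Ifi208 matched at 99.3%, Ifi213 and Ifi208 at 98.9% and Ifi214 and Ifi209 at 96%. The same 10 letters, GAAATCGAAA, began 35 bases before the start in Ifi203 and 36 bases before it in Mndal. A further window of Mndal held another match 54 bases before the start, and a further window of Ifi203 held none.

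The windows of Ifi207 and of Ifi205, which is not among the 7, are shown beside them because the mean levels of these genes were lower in the 84Q libraries.
Ifi207, chr1:173741760-173742059: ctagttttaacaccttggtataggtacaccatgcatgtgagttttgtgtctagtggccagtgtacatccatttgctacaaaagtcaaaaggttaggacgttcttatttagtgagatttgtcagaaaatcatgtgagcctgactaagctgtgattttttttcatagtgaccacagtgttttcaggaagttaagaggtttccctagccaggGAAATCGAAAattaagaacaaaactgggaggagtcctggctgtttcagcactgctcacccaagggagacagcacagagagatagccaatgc
Ifi205, chr1:174031706-174032005: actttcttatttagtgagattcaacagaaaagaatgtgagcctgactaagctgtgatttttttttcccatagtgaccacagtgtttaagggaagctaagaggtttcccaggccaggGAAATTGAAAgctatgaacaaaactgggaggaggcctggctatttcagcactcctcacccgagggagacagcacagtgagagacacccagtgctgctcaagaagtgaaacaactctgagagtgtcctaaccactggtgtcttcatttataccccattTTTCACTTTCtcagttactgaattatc
Ifi207 carried the same letters as Ifi203 and Mndal, 41 bases before the start, while Ifi205 had 1 match with other middle letters 134 bases before the start and 1 on the opposite strand 23 bases after it. GAAANNGAAA was found for 4 of the 6 matched genes (Ifi203, Mndal, Ifi207 and Ifi213) and for 9 of the 12 in the whole cluster, and in 3.44% of the 32851 RefSeq promoters. The letters GAAATCGAAA, taken up because they were the most frequent match in the cluster, stood in 7 of the 12 and in 16 promoters in all, or 0.049%. Several windows of the cluster are near copies of each other, so these matches are not separate cases. TTCNNNGAA, the core of the gamma-activated sequence, was found for none of the 6 and for Ifi202b alone among the 12, against 8.3% of all promoters. A match is a description of the letters in the window, and its part in the levels was not tested.

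Levels can be compared between the genes only per length. In TPM, a unit normalised for gene length and depth and computed here from the counts and the union of exons, the means over the 9 libraries were 7.87 ± 1.72 (SD, n = 9) for Mndal, 6.07 ± 0.989 for Aim2 and 6.06 ± 1.3 for Ifi203. Ifi204 followed at 2.73 ± 0.779, Ifi207 at 1.93 ± 0.922, Ifi209 at 0.839 ± 0.255 and Ifi213 at 0.505 ± 0.182. Neighbours in this order lay within the sum of their SDs of each other, except Ifi203 and Ifi204. The order among the first 3 was not the same in every group. In 15Q, Aim2 had 6.25 ± 0.539 TPM (SD, n = 3), Mndal 5.93 ± 0.356 and Ifi203 4.55 ± 0.621. In 84Q, Mndal had 9.16 ± 1.49 TPM, Ifi203 6.99 ± 0.899 and Aim2 6.82 ± 0.95, and Mndal was the highest in all 3 libraries.

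The sum of the 7 genes came to 24.3 ± 3.27 TPM in 15Q, 28.5 ± 1.8 in 84Q and 25.3 ± 0.877 in 84Q+IGF1 (SD, n = 3 each). Ifi203 and Mndal together made up 43.4% ± 2.18 of it in 15Q, 56.5% ± 5.21 in 84Q and 60% ± 2.21 in 84Q+IGF1. The other 5 genes summed to 13.8 ± 2.4 TPM in 15Q, 12.4 ± 1.15 in 84Q and 10.1 ± 0.305 in 84Q+IGF1. Since Ifi203 and Mndal were singled out for being higher in 84Q, the rise of their share follows from the choice, and it is given with no test.

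Ifi203 encodes a HIN-200 protein. Its levels, in CPM, the counts scaled to the TMM-adjusted total of each library, were 6.77, 7.23 and 8.57 in 15Q replicates 1 to 3, from 182, 291 and 501 counts. They were 10.9, 13.7 and 11.2 CPM in 84Q, from 317, 312 and 197 counts. In 84Q+IGF1 they were 12.2, 11.5 and 9.87 CPM, from 284, 306 and 288 counts. All 6 libraries with 84 repeats lay above all 3 libraries with 15, and the 84Q and 84Q+IGF1 libraries overlapped. The log2 fold change was 0.66 (SE 0.13) for 84Q against 15Q and 0.56 (SE 0.13) for 84Q+IGF1 against 15Q, or 1.58-fold and 1.48-fold. These and all other values against 15Q rest on the same 3 libraries of 15Q.

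Mndal, named for its likeness to the human myeloid nuclear differentiation antigen, showed nearly the same pattern. Its levels were 4.98, 5.54 and 5.42 CPM in 15Q, 8.11, 9.98 and 7.35 CPM in 84Q, and 8.71, 6.85 and 7.74 CPM in 84Q+IGF1, from 129 to 317 counts. Again the 3 libraries of 15Q lay below the other 6, and the highest library was 84Q replicate 2, as for Ifi203. The log2 fold change was 0.67 (SE 0.14) in 84Q and 0.54 (SE 0.14) in 84Q+IGF1, each against 15Q. The ratio of Ifi203 counts to Mndal counts kept between 1.27 and 1.68 over the 9 libraries, with means of 1.41 ± 0.146 in 15Q, 1.42 ± 0.0964 in 84Q and 1.45 ± 0.209 in 84Q+IGF1 (SD, n = 3 each).

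**Figure D1:**
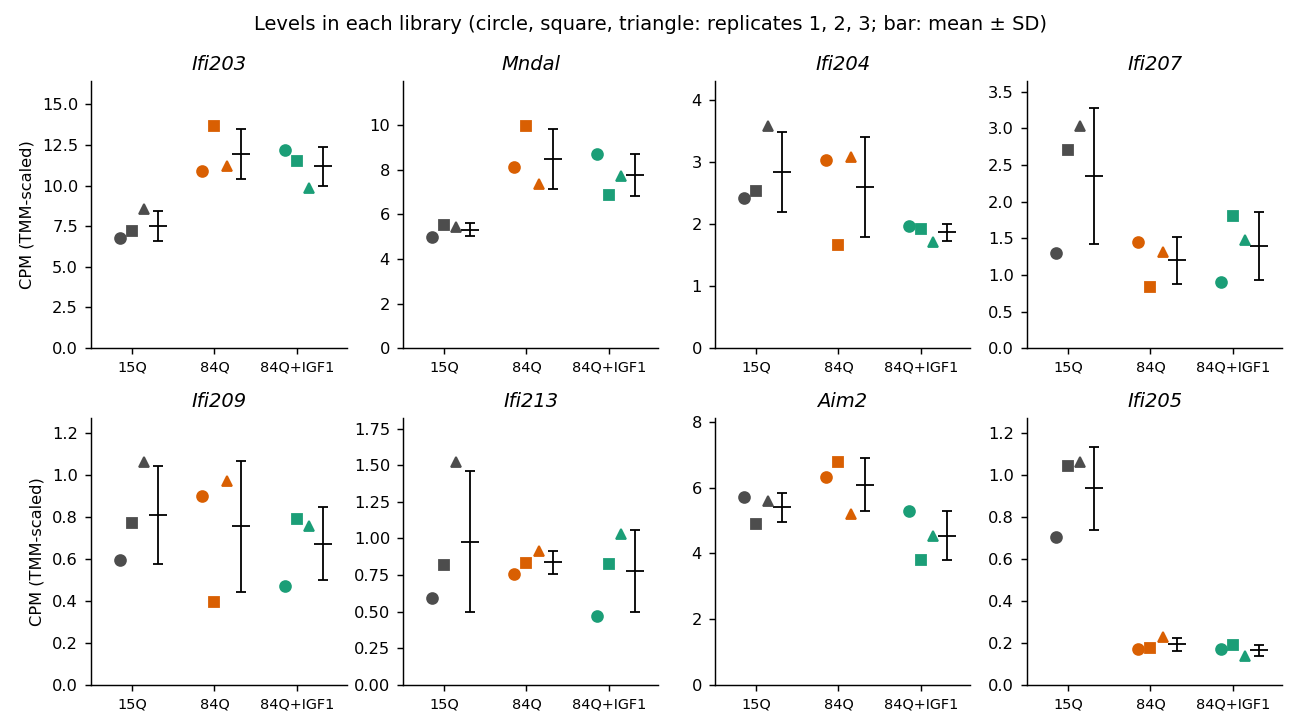
Levels of the 7 genes and of the neighbouring gene Ifi205 in CPM with TMM-scaled totals, with 1 panel per gene, 1 point per library by group and a bar for the group mean ± SD. Ifi203 and Mndal lie higher in all 6 libraries of 84Q and 84Q+IGF1 than in 15Q (for Ifi203, 9.87 to 13.7 against 6.77 to 8.57 CPM), and Ifi205 lies lower (0.137 to 0.228 against 0.706 to 1.06 CPM).

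The other 5 genes did not share that pattern. Aim2, the cytosolic DNA sensor, had 5.72, 4.89 and 5.58 CPM in 15Q, 6.31, 6.77 and 5.19 CPM in 84Q, and 5.28, 3.8 and 4.52 CPM in 84Q+IGF1. The groups overlapped, and 84Q replicate 3 was the only library of 84Q below the highest of 84Q+IGF1. Its log2 fold change against 15Q was 0.18 (SE 0.15) in 84Q and -0.25 (SE 0.15) in 84Q+IGF1.

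Ifi204, the mouse gene most often paired with human IFI16 as a DNA sensor, had 2.42, 2.53 and 3.59 CPM in 15Q, 3.04, 1.67 and 3.08 CPM in 84Q, and 1.97, 1.92 and 1.71 CPM in 84Q+IGF1. Every library of 84Q+IGF1 lay below every library of 15Q, as for 13% of all tested genes, while 84Q spanned both. Its log2 fold change against 15Q was -0.15 (SE 0.24) in 84Q and -0.62 (SE 0.24) in 84Q+IGF1.

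Ifi207, another HIN-200 gene, had 1.3, 2.71 and 3.04 CPM in 15Q, 1.45, 0.835 and 1.31 CPM in 84Q, and 0.901, 1.81 and 1.47 CPM in 84Q+IGF1. The first library of 15Q lay among the 84Q libraries, and the other 2 lay above all of them. Its log2 fold change against 15Q was -0.99 (SE 0.34) in 84Q and -0.77 (SE 0.33) in 84Q+IGF1. In the libraries with abundant Xist, Ifi207 was at 2.71 to 3.04 CPM in 15Q, then 1.45 in 84Q and 1.81 in 84Q+IGF1. In those with little Xist it was at 1.3 CPM in 15Q, then 0.835 to 1.31 in 84Q and 0.901 to 1.47 in 84Q+IGF1, so the groups overlapped there.

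Ifi209 and Ifi213 were the least abundant of the 7, with 9 to 62 and 11 to 89 counts per library. Ifi209 had 0.808 ± 0.235 CPM in 15Q, then 0.754 ± 0.312 in 84Q and 0.672 ± 0.174 in 84Q+IGF1 (SD, n = 3 each). Ifi213 had 0.979 ± 0.484 CPM in 15Q, then 0.835 ± 0.0765 in 84Q and 0.776 ± 0.282 in 84Q+IGF1. Their libraries overlapped between all groups, and the group means differed by less than the spread within 15Q.

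A gene was called where it reached 1.5-fold and its adjusted p was below 0.1, the thresholds of the study. By these, and as the choice of the set fixes, 2 of the 7 genes (Ifi203 and Mndal) passed for 84Q against 15Q, where 2.14% of all tested genes passed and 0.238% passed as higher. None of the 7 passed for 84Q+IGF1 against 15Q, where 2.25% of all genes passed, since Ifi203 and Mndal stood just under the fold threshold there, at 1.48-fold and 1.46-fold. For all 6 libraries with 84 repeats against 15Q, 3 of the 7 passed, with log2 fold changes of 0.61 (SE 0.11) for Ifi203, 0.61 (SE 0.12) for Mndal and -0.87 (SE 0.27) for Ifi207, and 3.47% of all genes passed. The nearest of the others in that comparison was Ifi204, at -0.37 (SE 0.22). With Xist as a covariate Ifi207 was at -0.56 (SE 0.24) and Mndal at 0.58 (SE 0.14), and neither passed. Without 84Q replicate 2 none of the 3 passed, and without 15Q replicate 1 only Ifi207 did. Ifi207 passed in 7 of 14 alternatives, and also failed with the replicate block and without 15Q replicate 2, 15Q replicate 3, 84Q replicate 3 or 84Q+IGF1 replicate 1. As the set was chosen on these contrasts, nothing is read from the counts. The 2 genes whose 15Q libraries lay below all 6 others compare with 5.93% of all tested genes that did so. The median log2 fold change of the 7 genes was -0.14 for 84Q and -0.29 for 84Q+IGF1 against 15Q, beside medians of -0.00 and -0.01 over all tested genes.

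**Figure D2:**
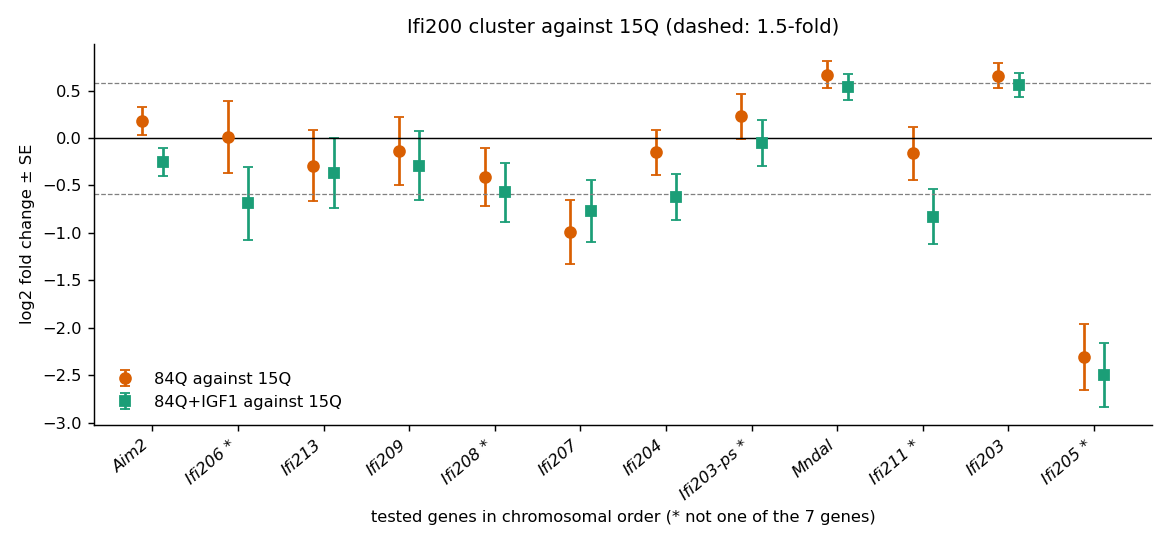
Log2 fold changes against 15Q (circles 84Q, squares 84Q+IGF1, bars ± SE) of the 12 tested genes of the cluster in their order along the chromosome, with an asterisk for those outside the 7 genes and dashed lines at 1.5-fold. Ifi203 (0.66 and 0.56) and Mndal (0.67 and 0.54) stand above 0, and Ifi205 (-2.31 and -2.50) stands farthest below it.

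Among the other tested genes of the cluster, Ifi205 had the largest difference from 15Q. Its counts were 19, 42 and 62 in 15Q, 5, 4 and 4 in 84Q, and 4, 5 and 4 in 84Q+IGF1. In CPM these were 0.706, 1.04 and 1.06 in 15Q, 0.172, 0.176 and 0.228 in 84Q, and 0.172, 0.188 and 0.137 in 84Q+IGF1. The groups were far apart, with all 6 libraries with 84 repeats below the 3 of 15Q, as for 6.37% of all tested genes, and they stood close to the floor of 3 counts. The fitted log2 fold change was -2.31 (SE 0.35) for 84Q and -2.50 (SE 0.34) for 84Q+IGF1 against 15Q. As Ifi205 reached the filter on low counts, 10 counts in a library of median size in at least 3 libraries, only through 15Q, the direction of its call as lower was fixed by the filter. For every count of Ifi205 there were 6.93 to 9.58 counts of Ifi203 in 15Q, 49.2 to 78 in 84Q and 61.2 to 72 in 84Q+IGF1. The direction of this ratio was fixed beforehand, by the choice of Ifi203 as higher in 84Q and by the filter for Ifi205. It also rests on 4 or 5 counts of Ifi205 in each library with 84 repeats, and nothing is read from it.

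The remaining genes varied less or were too low to compare. Ifi211 had 1.37 ± 0.32 CPM in 15Q, then 1.24 ± 0.326 in 84Q and 0.774 ± 0.196 in 84Q+IGF1 (SD, n = 3 each), and a log2 fold change of -0.83 (SE 0.29) for 84Q+IGF1 against 15Q that did not pass. Ifi206, Ifi208 and Ifi203-ps had log2 fold changes of 0.01 (SE 0.38), -0.41 (SE 0.31) and 0.23 (SE 0.24) for 84Q against 15Q. Ifi202b had 1, 1 and 2 counts in 15Q, 8, 4 and 5 in 84Q, and 2, 1 and 4 in 84Q+IGF1. Ifi214 had 4, 7 and 10 counts in 15Q, 9, 4 and 1 in 84Q, and 0, 0 and 4 in 84Q+IGF1, and neither gene was tested.

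Tested genes close beside the cluster were few, so the counts called among them are a description. Within 1 Mb on either side, 33 other genes had a row and 12 were tested. For 84Q against 15Q none of the 12 was called higher and 1 lower, Gm2710 at -0.70. Over all tested genes 0.238% were called higher there and 2.14% in either direction. For all 6 libraries with 84 repeats against 15Q, 2 of the 12 were called lower, Igsf9 at -1.38 (SE 0.34) and Cfap45 at -1.19 (SE 0.38). In that comparison 3.47% of all tested genes were called. The median of the 12 was -0.07 for 84Q against 15Q, -0.22 for 84Q+IGF1 against 15Q and -0.18 for all 6 libraries against 15Q, beside -0.00, -0.01 and -0.00 over all genes. The nearest tested gene at the Aim2 end was Cadm3, a cell adhesion gene of neurons whose span overlaps that of Aim2 on the opposite strand, with 1462 CPM in 15Q, then 1466 in 84Q and 1511 in 84Q+IGF1 and log2 fold changes of 0.00 and 0.05. The nearest after Ifi205 was Fmn2, a formin, at -0.06 and 0.02. Ackr1, a chemokine receptor of blood vessels and red cells that lies 17.1 kb before the cluster, had 46.1 CPM in 15Q, then 56.2 in 84Q and 54.4 in 84Q+IGF1, with all 6 libraries above 15Q, and its log2 fold changes of 0.29 and 0.24 did not pass. Within 5 Mb, 103 genes were tested. For 84Q against 15Q, 1 of them was called higher, Gm10171 at 0.74, and 2 lower, Gm2710 and Gm38104 at -0.86. The shares over all tested genes were again 0.238% called higher and 2.14% called in either direction.

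**Figure D3:**
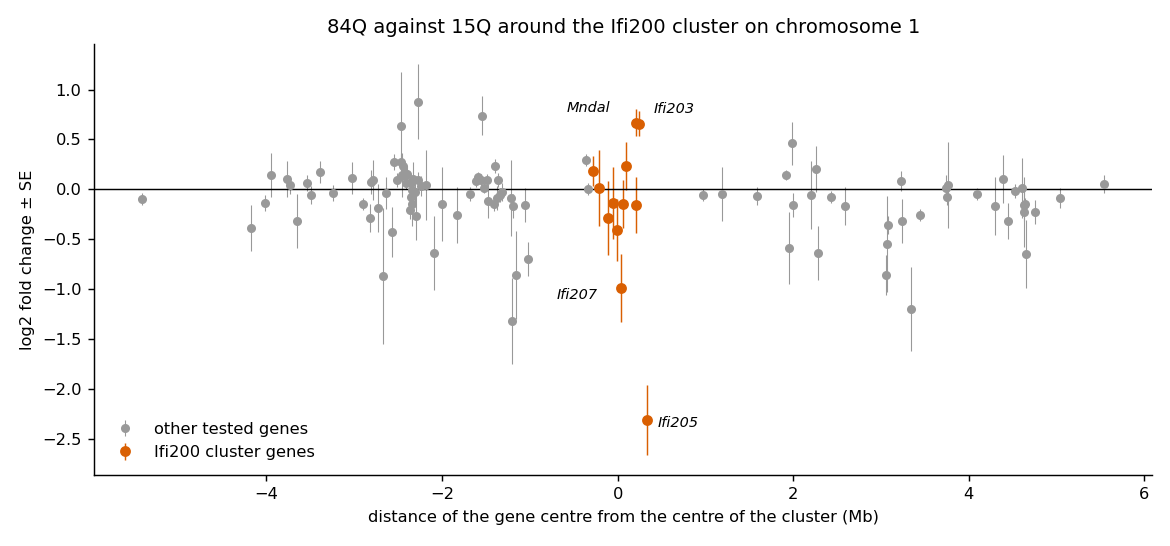
Log2 fold change ± SE of 84Q against 15Q for the tested genes around the cluster on chromosome 1, by the distance of each gene's centre from the centre of the cluster in Mb, with cluster genes in colour and other genes in grey. Of the 103 other genes within 5 Mb, 1 was called higher and 2 lower, where 0.238% of all tested genes were called higher and 2.14% in either direction.

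IGF1 treatment was compared with 84Q alone in the same fit, and this is the comparison in which the genes were tested. For Ifi203 and Mndal the choice rested partly on the 84Q libraries, so their values and intervals may lean towards lower levels in 84Q+IGF1. None of the 7 genes was called, and none of the 19353 genes was, which is 0%. With the quasi-likelihood test of edgeR and p-values adjusted by Benjamini-Hochberg, Ifi203 had a log2 fold change of -0.10 (SE 0.13, 95% interval -0.39 to 0.19, adjusted p = 0.981). Mndal had -0.13 (SE 0.14, 95% interval -0.43 to 0.17, adjusted p = 0.969) by the same edgeR test. For these genes the intervals leave out a change of 1.5-fold in either direction, but they do not show that the levels were alike.

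Aim2 had the largest difference for its error in that comparison, with 6.09 ± 0.814 CPM in 84Q and 4.53 ± 0.737 in 84Q+IGF1 (SD, n = 3 each). Its log2 fold change was -0.43 (SE 0.16, 95% interval -0.78 to -0.09), and its adjusted p in edgeR was 0.969, so it was not called. It was the only one of the 7 with an unadjusted edgeR p under 0.05, at 0.0175, and 4.68% of all tested genes, or 905, were under that value. Ifi204 had -0.47 (SE 0.25, 95% interval -1.03 to 0.08) and Ifi207 0.22 (SE 0.37, 95% interval -0.58 to 1.02). Ifi209 had -0.15 (SE 0.38, 95% interval -0.98 to 0.69) and Ifi213 -0.08 (SE 0.40, 95% interval -0.95 to 0.80). The adjusted p of these 4 genes lay between 0.969 and 0.994 in edgeR, and their intervals are wide enough to hold a change of 1.5-fold. None of the 7 genes had separate libraries in the 2 groups, where 8.46% of all genes did. DESeq2 called 6 genes in all and the fit without a filter 168, and no member was among them.

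**Figure D4:**
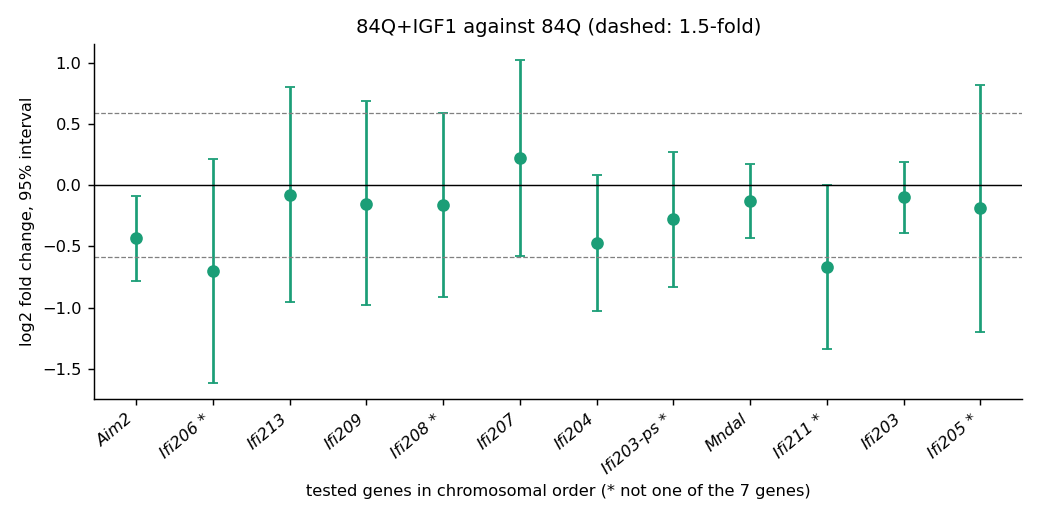
Log2 fold change of 84Q+IGF1 against 84Q with its 95% interval for the 12 tested genes of the cluster in chromosomal order, with an asterisk for those outside the 7 genes and dashed lines at 1.5-fold. The interval includes 0 for 6 of the 7 genes, and for Aim2 it runs from -0.78 to -0.09.

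Over the 9 libraries the log2 CPM of Ifi203 and Mndal had a Pearson's r of 0.92, given as a description, since the groups, the library depths and the 15Q libraries are common to both. Among all other tested genes Mndal ranked 9 in likeness to Ifi203, and Ifi203 ranked 11 in likeness to Mndal. The genes outside the cluster nearest to Ifi203 were Tmem19 (r = 0.952), Def8 (0.944), Rpl36 (0.935), Xkr8 (0.932) and Rnf215 (0.929). Among those nearest to Mndal were Tada2a (0.968), Ykt6 (0.951), Bbs5 (0.943) and Eif2ak1 (0.939). Within the cluster, r with Ifi203 was 0.10 for Aim2, -0.40 for Ifi204, -0.62 for Ifi207 and -0.83 for Ifi205, values whose signs the choice of Ifi203 and, for Ifi205, the filter bear on.

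The genes that Aim2 works with were measured at low levels. Pycard, the inflammasome adaptor, had 1.74 ± 0.347 CPM in 15Q, then 1.75 ± 0.354 in 84Q and 1.53 ± 0.0628 in 84Q+IGF1 (SD, n = 3 each). Casp1 had 2.98 ± 0.0992, 2.48 ± 0.174 and 2.56 ± 0.552 CPM in the same order. Gsdmd, the pore-forming target of Casp1, had 2.69 ± 0.231, 2.91 ± 0.577 and 2.31 ± 0.403 CPM. Il18, a cytokine that Casp1 matures, had 6.19 ± 0.546, 5.6 ± 0.845 and 5.61 ± 0.575 CPM, while Il1b, the other one, was too low to be tested. Il1b had 8, 12 and 17 counts in 15Q, 2, 3 and 1 in 84Q, and 1, 2 and 1 in 84Q+IGF1, so that all 6 libraries with 84 repeats were at or under the floor of 3 counts. Of 19 genes in a list of inflammasome adaptors, caspases, targets and sensors, 16 were tested and none was called in either direction in any of the 3 comparisons of 2 groups, in which 2.14%, 2.25% and 0% of all genes were, with medians of -0.20, -0.23 and -0.03 for 84Q against 15Q, 84Q+IGF1 against 15Q and 84Q+IGF1 against 84Q. For all 6 libraries with 84 repeats against 15Q, Nlrc4, a sensor of bacterial proteins, was called lower, at -0.67.

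The parallel route of DNA sensing runs from Cgas, which makes a cyclic dinucleotide from cytosolic DNA, to Sting1, listed as Tmem173. Cgas had 1.02 ± 0.317 CPM in 15Q, then 0.712 ± 0.0714 in 84Q and 0.84 ± 0.0768 in 84Q+IGF1, and Tmem173 had 2.45 ± 0.362, 2.02 ± 0.508 and 1.98 ± 0.324 CPM (SD, n = 3 each). In the DNA-sensing list 16 genes were tested and 0 were called in any of the 3 comparisons, where 2.14%, 2.25% and 0% of all genes were. Their medians were 0.02, 0.04 and 0.07. Among interferons, their receptors and signaling genes, 17 were tested and 0 were called, with medians of 0.05, -0.01 and -0.12. Irf9, a subunit of the factor that binds the interferon-stimulated response element, had 22.1 ± 3.79, 30.1 ± 9.55 and 24.7 ± 1.18 CPM, and Irf7 had 7.52 ± 1.25, 9.47 ± 3.64 and 6.93 ± 2.43 CPM in 15Q, 84Q and 84Q+IGF1.

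Of 50 other interferon-stimulated genes tested, 0 were called in any of the 3 comparisons, a count close to the shares over all genes of 2.14%, 2.25% and 0%, and 31 had a positive log2 fold change for 84Q against 15Q but 9 for 84Q+IGF1 against 15Q and 4 for 84Q+IGF1 against 84Q. Their medians were 0.08, -0.16 and -0.23, beside -0.00, -0.01 and -0.00 over all tested genes. The 51 listed genes summed to 378 to 473 CPM in 15Q, 402 to 568 in 84Q and 330 to 438 in 84Q+IGF1, so the groups overlapped. The highest sum was that of 84Q replicate 3, also the highest library for Irf7 (13.6 CPM) and Irf9 (41 CPM). Genes of 1 list are not independent of each other, and the counts of positive values were not tested.

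**Figure D5:**
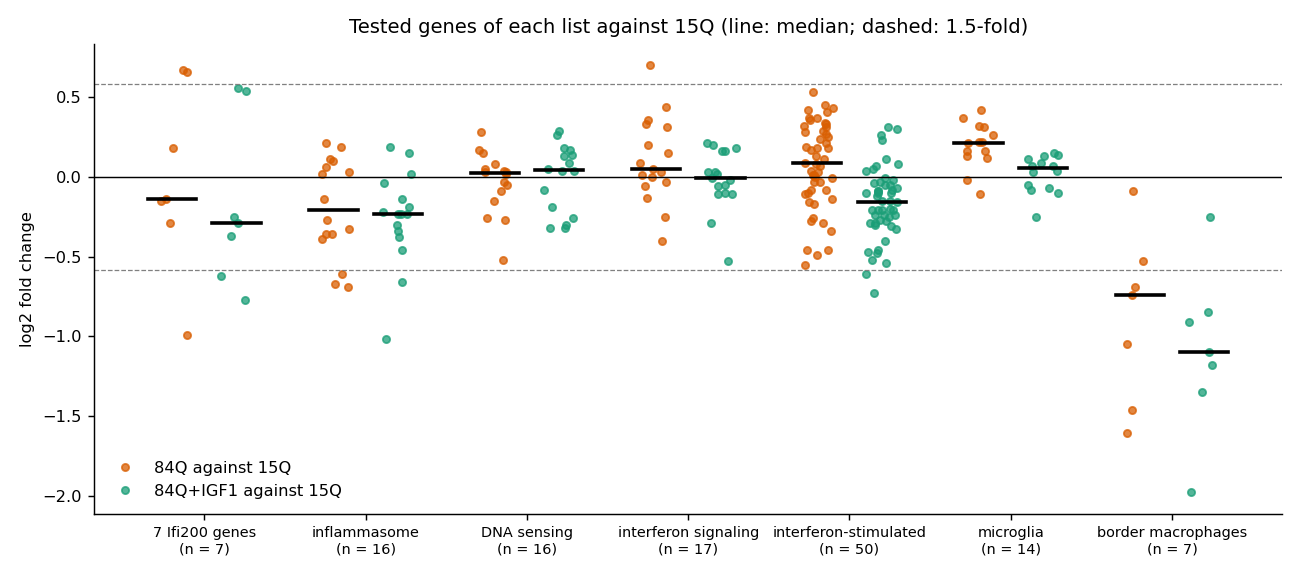
Log2 fold changes against 15Q of the tested genes among the 7 genes, in the 4 pathway lists and in the microglia and border macrophage lists, with 1 point per gene, in separate colours for 84Q and 84Q+IGF1, a line at each median and dashed lines at 1.5-fold. The interferon-stimulated genes have medians of 0.08 and -0.16, and no point of that list was called, where 2.14% and 2.25% of all tested genes were.

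In bulk tissue, fewer cells of a type and less RNA per cell cannot be told apart. Over all tested genes, 2.14% were called in 84Q against 15Q, 2.25% in 84Q+IGF1 against 15Q and 3.47% in all 6 libraries against 15Q. The markers of cerebellum were abundant, with summed levels of 6220 to 6936 CPM for 8 Purkinje cell genes and 5273 to 6070 CPM for 8 granule cell genes. Of the 14 microglia markers none was called, and 12 had positive log2 fold changes in 84Q and 9 in 84Q+IGF1 against 15Q, with medians of 0.22 and 0.05, and their sum was 230 to 295 CPM in 15Q, then 285 to 360 in 84Q and 256 to 278 in 84Q+IGF1. Markers of border-associated macrophages had a sum of 27.1 to 39.8 CPM in 15Q, then 18.6 to 28 in 84Q and 21 to 22.2 in 84Q+IGF1. Of the 7 tested, Cbr2 was called lower in 84Q (-1.61) and Cbr2 and Cd163 in 84Q+IGF1 (-1.98 and -1.18), each against 15Q, and for all 6 libraries against 15Q it was 5 of the 7 (Mrc1 at -0.82, Cd163 at -0.92, Cbr2 at -1.79, F13a1 at -1.07 and Ms4a7 at -1.40), of which Cbr2 and Ms4a7 passed the filter only through 15Q. Of 8 tested markers of blood leukocytes, Ccr2, which also passed the filter only through 15Q, was called lower in 84Q+IGF1 (-3.43) and in all 6 libraries (-2.25), and the list summed to 7.17 to 14.8 CPM in 15Q, then 5.85 to 10.7 in 84Q and 6.35 to 8.02 in 84Q+IGF1.

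Genes of tissues outside the brain also differed from 15Q in the direction of Ifi205. All 9 tested markers of intestinal and epidermal epithelium were called lower in both 84Q groups, although 6 of the 9 passed the filter on low counts only through 15Q, which fixes their direction. Their sums were 46.5 to 74.9 CPM in 15Q, then 14.9 to 18 in 84Q and 16.8 to 19 in 84Q+IGF1. For skeletal muscle it was 7 of 8, with 5 of the 8 past the filter only through 15Q and sums of 14.9 to 23.1, 3.34 to 5 and 4.12 to 4.87 CPM. Of 9 meningeal fibroblast markers, 2 were called lower in 84Q, 4 in 84Q+IGF1 and 6 for all 6 libraries, each against 15Q. None of the 9 had a positive log2 fold change there, and their sums were 140 to 189, 87 to 126 and 83.6 to 105 CPM in 15Q, 84Q and 84Q+IGF1. Choroid plexus markers summed to 43.6 to 504 CPM in 15Q, then 29.4 to 1043 in 84Q and 28.4 to 68.5 in 84Q+IGF1, and no gene of the choroid plexus, endothelial, astrocyte or oligodendrocyte lists was called. Over all 19353 tested genes, 46 were called higher and 368 lower in 84Q against 15Q. For 84Q+IGF1 against 15Q it was 36 and 399, and for all 6 libraries against 15Q 61 and 611. No marker list held a gene called higher in 84Q or 84Q+IGF1 than in 15Q, which is close to those shares and is not read as a result. The part of these cells in the levels of the cluster was not tested.

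As all 6 libraries with 84 repeats lay above 15Q for Ifi203 and Mndal, any split of the libraries, also one by Xist, must keep that order. The values of that split are therefore only a description, with 1 or 2 libraries per group in each set. With Xist as a covariate, Mndal fell under the fold threshold for all 6 libraries against 15Q. With abundant Xist, Ifi203 was at 7.23 to 8.57 CPM in 15Q, then 10.9 in 84Q and 11.5 in 84Q+IGF1, and Mndal was at 5.42 to 5.54, 8.11 and 6.85 CPM. With little Xist, Ifi203 was at 6.77 CPM in 15Q, then 11.2 to 13.7 in 84Q and 9.87 to 12.2 in 84Q+IGF1, and Mndal was at 4.98, 7.35 to 9.98 and 7.74 to 8.71 CPM. The call of the 2 genes for 84Q against 15Q rested on few libraries: without 84Q replicate 2 or without 15Q replicate 2 neither passed, and without 15Q replicate 3 Mndal did not, while over all alternatives the log2 fold change of Ifi203 stayed between 0.56 and 0.78 and that of Mndal between 0.55 and 0.76.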

How the data were processed

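RNA of 9 cerebella was sequenced with a strand-specific kit as paired reads of 150 bases. Per the labels and the study's methods, the authors used Trimmomatic 0.36 for trimming, HISAT2 2.2.0 for alignment to GRCm38.p6 (mm10) and featureCounts for counting. The deposited values are unnormalized counts of reads per gene, and the annotation, the strand setting and the treatment of reads that fit several genes are not given in the sources used here. Gene symbols, positions and lengths came from GENCODE vM21, in which 37681 of the 37816 identifiers had a position.

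Counts were fitted with edgeR 4.0.16 in R 4.3.3 (TMM, filterByExpr, quasi-likelihood test, Benjamini-Hochberg adjustment over 19353 genes, all 9 libraries in 1 fit with 3 groups), after tests on simulated counts. A separate fit with 2 groups set 15Q against the 6 other libraries. CPM used TMM-scaled totals, and correlations used log2 CPM with a prior count of 2. Promoter windows were aligned with Biopython 1.88. The floor of 3 counts was 0.0513 to 0.171 CPM per library and covers counting error only. Libraries of a group differed by more than sampling noise (chi-square per gene 9.58 to 16.1, where noise gives 1).

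Libraries were grouped by their labels, as separate mice. Same-numbered libraries did not deviate together (correlations of -0.309 to 0.0788, 0 of 9 over 0.1), so the numbers were not used as pairs. Named genes were the 7 genes, the other cluster genes, called list genes of highest CPM, fixed pathway genes and the nearest or called neighbours. The genes and all lists were chosen with earlier results of these data known. Alternatives were DESeq2 1.42.0, its size factors, no filter, a replicate block, Xist as a covariate, only the groups compared, an adjusted p under 0.05, each library left out, transcript length for TPM and the window of neighbours. The reads and the human transgene were not analysed here. The values of 2 genes covered by the rule for names are not reported here.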

Additional observations from a re-analysis of the deposited data

How the results depend on the processing

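In 84Q against 15Q, 2 of the 7 genes were called, and 0 to 3 with 1 library left out: 0 without 15Q replicate 2 or 84Q replicate 2, and 1 without 15Q replicate 3. Without the filter it was 3, with Ifi207 added. In 84Q+IGF1 against 15Q the count of 0 became 1 (Ifi207) without the filter, and was 0 to 1 with 1 library left out. In all 6 against 15Q the count of 3 became 1 with Xist as a covariate, where Ifi207 had -0.56, and was 0 to 3 with 1 library left out: 1 without 15Q replicate 1 and 0 without 84Q replicate 2. In 84Q+IGF1 against 84Q no setting called any of the 7. With the replicate block the calls were 2, 0, 0 and 2 in the order 84Q against 15Q, 84Q+IGF1 against 15Q, 84Q+IGF1 against 84Q and all 6 against 15Q, and over all genes the block gave 242 calls in place of 414 and 271 in place of 435 in the first 2. Without the filter 1025 and 1284 genes were called there. With Xist as a covariate, 274 genes were called in 84Q against 15Q, and 399 in place of 672 in all 6 against 15Q. Neighbours called in 84Q against 15Q were 0 of 3 tested within 0.5 Mb and 1 of 12 within 1 Mb, where 2.14% of all genes were called. The share of Ifi203 and Mndal in the TPM of the 7 was 61% by the longest transcript and 53.3% by the union of exons, over all libraries.

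No value of a cluster gene that was called turned its sign under any of these alternatives. Called list genes and neighbours were not followed through them. For 84Q+IGF1 against 84Q the log2 fold changes with 1 library left out ran from -0.33 to 0.17 for Ifi213, -0.45 to 0.04 for Ifi209, -0.33 to 0.05 for Ifi208, -0.01 to 0.44 for Ifi207, -0.22 to 0.00 for Mndal and -0.16 to 0.02 for Ifi203. Against 15Q, Ifi213 reached 0.22 for 84Q and 0.14 for 84Q+IGF1 without 15Q replicate 3. Without 84Q replicate 2 or 15Q replicate 3, the values for 84Q were 0.09 and 0.07 for Ifi204 and 0.16 and 0.13 for Ifi209, which was at 0.03 with Xist as a covariate. The cause of these changes was not tested. Counts were lowest for Ifi202b, Ifi214, Ifi205, Ifi206 and Ifi208, and each group held 3 mice.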
